A study of Mus musculus with 12 samples.

Results

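Interferon-stimulated genes are the genes that cells switch on when an interferon binds its receptor. The group described here holds 40 of them, listed by symbol, out of 28987 genes in the deposited table. All 40 were found and all 40 reached 1 TPM in 3 or more libraries and were tested, none through a single group alone, where TPM is the share of a library's transcripts that a gene takes, corrected for its length and scaled to the same total, and 28 were above 0 in every library. The RNA came from neutrophils of bone marrow (BM) and of the peritoneum (PT), with 3 libraries in each of 4 groups: BM WT (libraries 4 to 6), PT WT (10 to 12), BM Bcl2 (1 to 3) and PT Bcl2 (7 to 9). All mice were of the FVB strain and had received 2 mL thioglycollate, an irritant that draws neutrophils into the peritoneum, 6 h before collection by the labels, although the study's methods name other times. Bcl2 stands for MRP8-Bcl2 mice, which carry human BCL2 under the regulatory regions of human MRP8, a gene of the myeloid lineage, so that the transgene is not confined to neutrophils by design. There were no untreated mice among the groups, and the marrow libraries are from thioglycollate-treated animals too. The labels name macrophages as the source while the study's design and methods name neutrophils sorted by flow cytometry, and the neutrophil list (8 genes, S100a8 and S100a9 among them) summed to 76743 to 350674 TPM in BM and 14406 to 67686 in PT. Most of each sum came from S100a8 and S100a9, and other genes of the list went in different directions from BM to PT, as given with the markers below. The labels do not say whether libraries of a group came from separate mice, so the p-values measure the spread between these libraries, which may be partly technical. The study's methods describe cells of both sites as taken from each mouse, so BM and PT libraries can share animals, but the columns do not show which, and the fits treated all libraries as independent.

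Type I interferons signal through the receptor IFNAR and the kinases JAK1 and TYK2 to a complex that holds STAT2 and IRF9. That complex binds the interferon-stimulated response element (ISRE) in the promoters of its targets. Type II interferon acts through another promoter element, the gamma-activated site (GAS). The products include sensors of foreign RNA, enzymes that degrade or modify it, the ubiquitin-like protein ISG15 and membrane proteins that hinder the entry or release of viruses. Many of these genes are also driven by other signals, and neutrophils express part of the set at rest.

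A motif of their promoters was common to part of the group. RefSeq promoter windows (GRCm38.p6, 250 bases before to 50 after a start) could be matched for 30 of the 40 genes, with 39 windows in all. The ISRE, searched on both strands as GAAA, any 2 bases and GAAA, was found in 15 of 30 genes (50%) and in 3.99% of all 27025 genes with a window. With the C that follows it in the longer form, a subset of the first, the shares of windows were 33.3% and 0.819%. The GAS, searched as TTCNNNGAA, a motif that reads the same on both strands, was in 26.7% of the genes and 9.55% of all. The upstream 250 bases of 4 genes that were higher in PT of both genotypes are shown to set a promoter with the motif beside ones without it, 5′ to 3′ on the strand of the gene with the ISRE in capitals. Isg15 (chr4:156200819-156201068, minus strand) holds 3 overlapping ISREs from base -78, Rsad2 (chr12:26456453-26456702, minus strand) holds 1 in the reverse orientation, and Oasl2 (chr5:114896684-114896933, plus strand) and Isg20 (chr7:78913174-78913423, plus strand) hold none.
Isg15: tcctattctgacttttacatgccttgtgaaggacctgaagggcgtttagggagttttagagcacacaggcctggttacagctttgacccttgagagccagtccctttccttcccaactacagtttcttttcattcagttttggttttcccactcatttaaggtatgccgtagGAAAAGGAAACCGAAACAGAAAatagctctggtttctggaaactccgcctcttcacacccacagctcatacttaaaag
Rsad2: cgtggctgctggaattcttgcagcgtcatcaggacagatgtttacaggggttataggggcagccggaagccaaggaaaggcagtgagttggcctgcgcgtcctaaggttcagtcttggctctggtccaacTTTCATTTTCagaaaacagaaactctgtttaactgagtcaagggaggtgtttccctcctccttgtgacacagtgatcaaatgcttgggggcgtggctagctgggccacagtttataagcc
Oasl2: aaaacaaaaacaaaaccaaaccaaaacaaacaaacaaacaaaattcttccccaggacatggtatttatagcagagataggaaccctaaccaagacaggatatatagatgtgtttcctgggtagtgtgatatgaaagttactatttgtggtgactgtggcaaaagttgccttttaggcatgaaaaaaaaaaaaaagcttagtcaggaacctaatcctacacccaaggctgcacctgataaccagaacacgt
Isg20: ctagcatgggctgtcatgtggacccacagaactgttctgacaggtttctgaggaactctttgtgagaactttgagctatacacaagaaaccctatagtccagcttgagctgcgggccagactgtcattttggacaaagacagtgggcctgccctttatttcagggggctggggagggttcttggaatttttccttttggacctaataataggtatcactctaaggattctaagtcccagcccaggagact
Among the genes called higher in PT in at least 1 genotype (next paragraph), 6 of the 10 with a window held an ISRE (60%), as did 9 of the 20 others (45%). The GAS was in 1 of these 10 genes and in 7 of the 20 others. A match is a description of the letters and not a binding site, and a window without a match says nothing about sites outside it.

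All changes below are log2 fold changes on the log2(TPM + 1) scale, from BM to PT unless stated. In WT mice, 6 of the 40 genes were called higher in PT than in BM and 0 lower (limma, Benjamini-Hochberg adjusted p under 0.05 over 13456 tested genes and at least 2-fold), where 1.59% of all tested genes were called higher and 1.22% lower. In MRP8-Bcl2 mice, 14 were called higher and 0 lower, where 2.31% of all genes were called higher and 19.1% lower. The 6 genes of WT, namely Oasl2, Isg15, Isg20, Rsad2, Ifitm1 and Gbp2, were among the 14. The other 8 (Ddx58, Oas2, Oas3, Ifit1, Rtp4, Gbp5, Parp14 and Xaf1) had positive changes in WT as well, between 0.81 and 3.40 on the log2 scale, without passing the test. The row the table lists as Gbp5 carries a gene ID that GENCODE M21 gives to Gbp2b, so which of these genes it measured is uncertain. The median change of the 40 genes was 1.33 in WT and 1.29 in MRP8-Bcl2, against 0.22 and -1.02 for all tested genes. Without adjustment, at p under 0.05 (limma), 17 genes of the group were higher and 1 lower in WT, and 16 and 2 in MRP8-Bcl2. Of all tested genes, 10.2% were higher and 6.32% lower in WT at that p, and 4.53% and 32.7% in MRP8-Bcl2. In 14 genes every PT WT value was above every BM WT value, as in 14.9% of all tested genes, and in 18 every PT Bcl2 value was above every BM Bcl2 value, as in 5.18%. The WT count changed when single libraries were left out. Without library 4 (BM WT), 10 or 11 (PT WT) it was 0, where 0.455%, 0.303% and 0.797% of all tested genes were called higher. Without library 6 (BM WT) it was 1, where 0.699% were. Without library 2, 9 or 12 it was 3, where 1.26%, 1.48% and 0.886% were. Libraries 2 and 9 are MRP8-Bcl2 libraries and bear on the WT test only through the shared fit. The MRP8-Bcl2 count was 9 without library 2 or 3 (both BM Bcl2), where 1.35% and 1.14% of all tested genes were called higher. In bulk RNA, fewer cells of a type and less RNA per cell cannot be told apart.

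**Figure D1:**
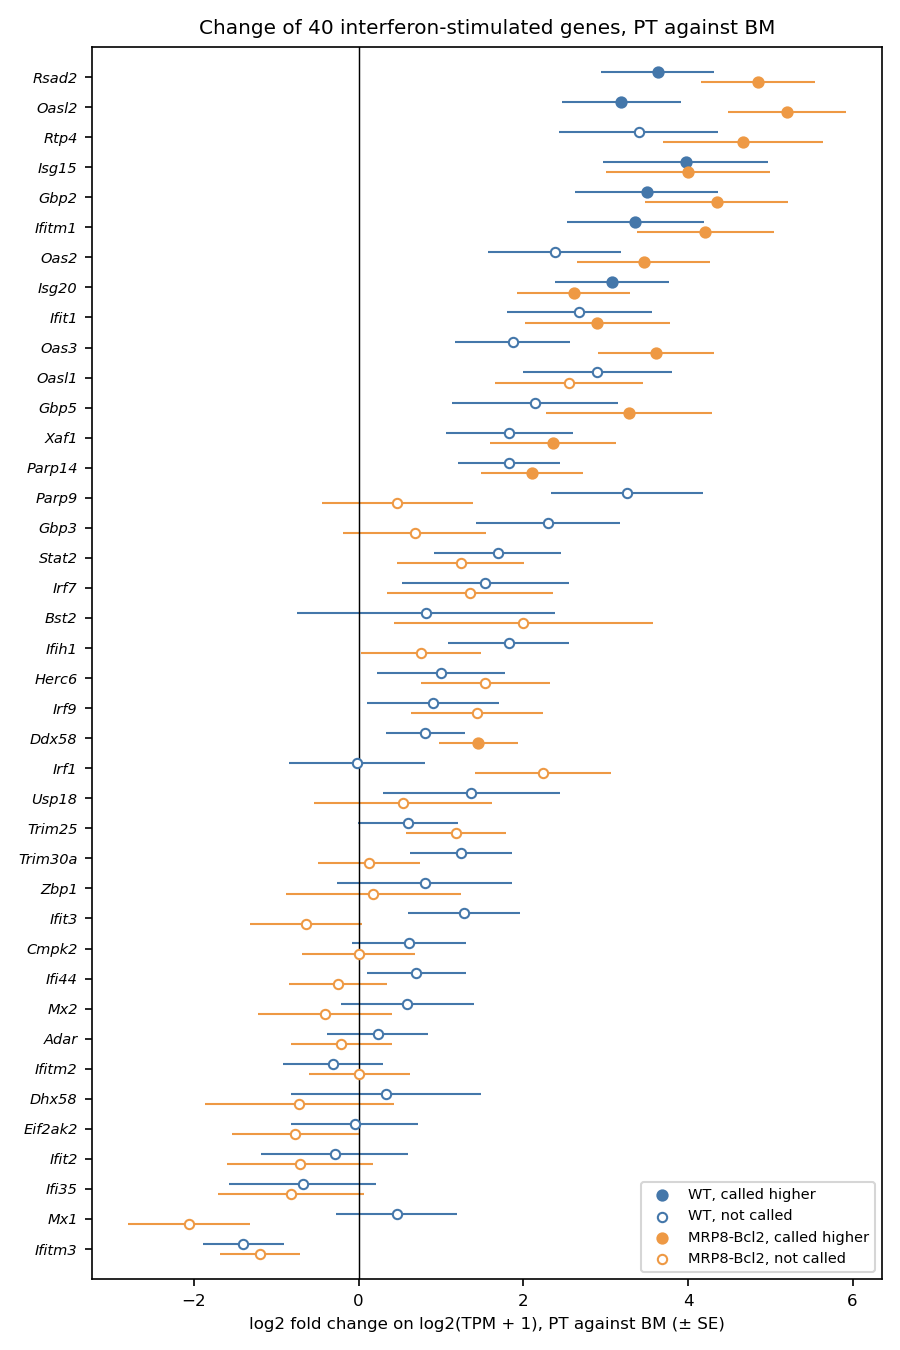
Change from BM to PT of the 40 interferon-stimulated genes on the log2(TPM + 1) scale (points) with its standard error (bars), in WT and MRP8-Bcl2, ordered by the mean of both. Filled points are genes called higher, 6 in WT and 14 in MRP8-Bcl2, and the lowest genes are Mx1 and Ifitm3.

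When the changes of both genotypes were averaged in the same fit, a contrast added after the data had been seen, 15 genes were higher and 1 lower, where 5.13% of all genes were higher and 14.1% lower. The 15 were the 14 above and Oasl1, and the lower gene was Ifitm3 (change -1.30, adjusted p 0.0172, limma), which was not called with libraries centred on their medians, with median ratio scaling or without the genes with a long run of A or T. The count of higher genes was between 14 and 17 when any 1 library was left out, where 3.88% to 5.15% of all tested genes were called higher. In 11 genes every PT library was above every BM library over both genotypes, where 2.58% of all tested genes separated in this way: Oasl1, Oasl2, Isg15, Ifit1, Isg20, Rsad2, Ifitm1, Rtp4, Gbp2, Parp14 and Xaf1. None separated in the opposite direction, where 4.46% of all genes did.

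**Figure D2:**
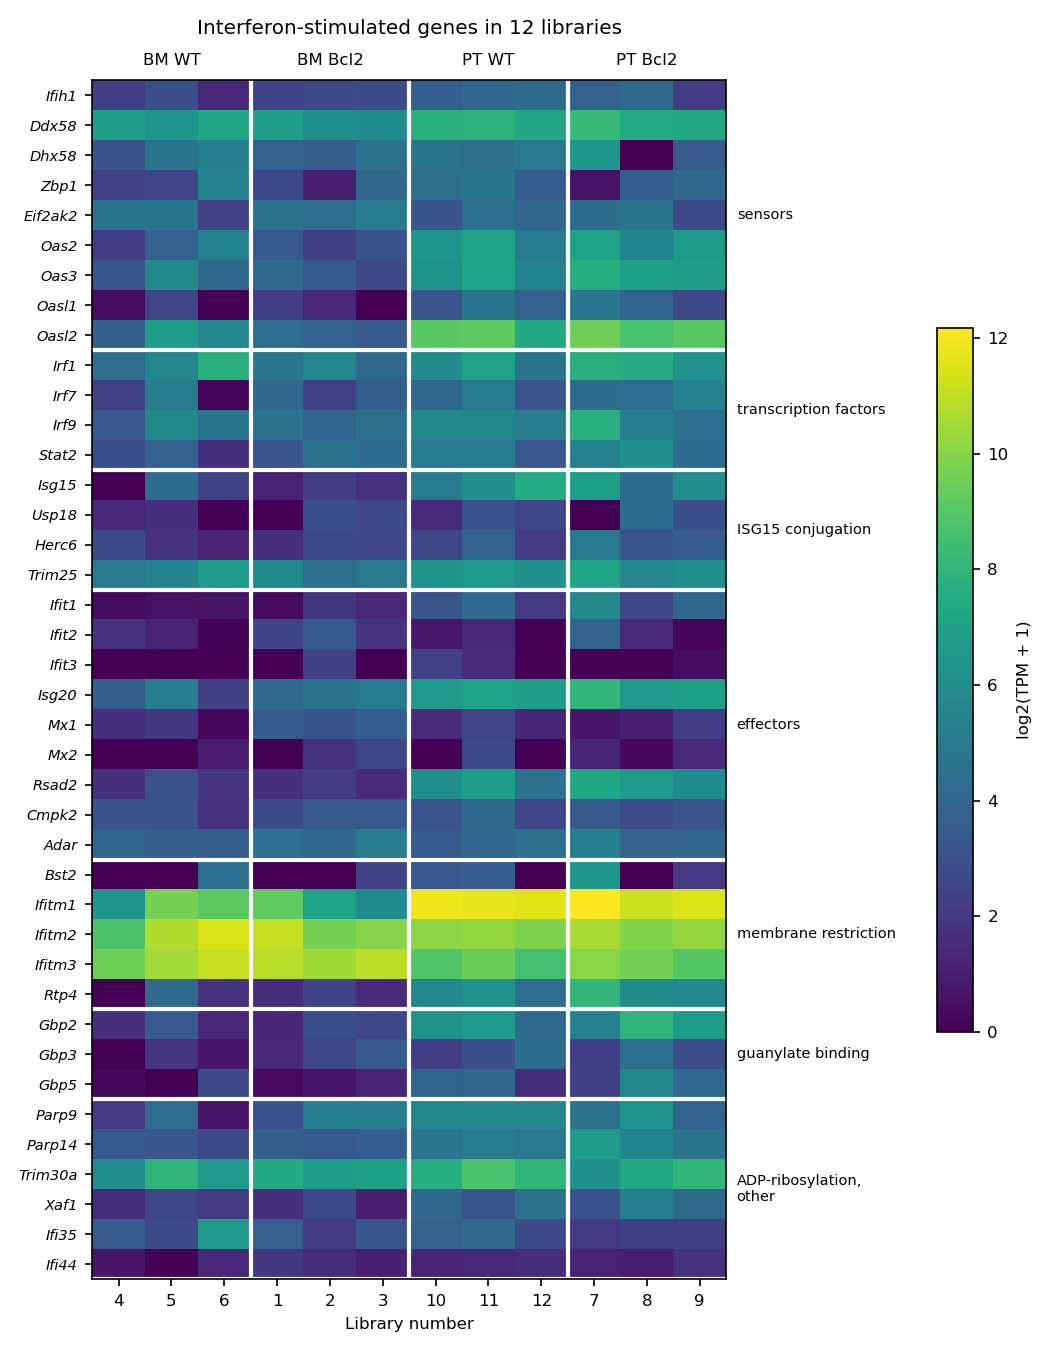
Level of each of the 40 genes (rows, by role) in each of the 12 libraries (columns, by group) as log2(TPM + 1). The 3 Ifitm genes are the brightest rows, and Oasl2, Rsad2, Isg20, Rtp4 and Ifitm1 are brighter in the 6 PT libraries than in the 6 BM libraries.

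The sensors of foreign nucleic acid were led by Oasl2, an oligoadenylate synthetase-like protein. Oasl2 (chromosome 5, 114896936-114912234, GRCm38) was at 11.9, 111 and 49 TPM in BM and 544, 580 and 172 in PT of WT, and at 19.7, 13.1 and 10 in BM and 747, 405 and 529 in PT of MRP8-Bcl2. All 6 PT libraries lay above all 6 BM libraries. It rose by 3.19 on the log2 scale in WT (SE 0.72, adjusted p 0.0301, limma) and by 5.20 in MRP8-Bcl2 (SE 0.72, adjusted p 0.000856), the largest change of the group. The WT call was lost without library 4, 6, 10 or 11 (adjusted p up to 0.12 under any alternative). Its relatives Oas2 and Oas3, oligoadenylate synthetases that make the activator of RNase L, followed in MRP8-Bcl2. Oas2 was at 3.3, 13.4 and 39.3 TPM in BM and 82.6, 130 and 31 in PT of WT, and at 9.93, 3.9 and 7.64 in BM and 133, 44.4 and 100 in PT of MRP8-Bcl2. Oas3 was at 8.54, 56.3 and 15.7 TPM in BM and 75.9, 128 and 44.2 in PT of WT, and at 17.7, 10.1 and 5.78 in BM and 192, 117 and 111 in PT of MRP8-Bcl2. For both, the WT groups overlapped and the MRP8-Bcl2 groups did not. Oas2 rose by 3.46 in MRP8-Bcl2 (adjusted p 0.0101, limma) and Oas3 by 3.61 (adjusted p 0.00421), and in WT the changes were 2.38 (adjusted p 0.142) and 1.87 (adjusted p 0.183). Oasl1, known to restrain the translation of Irf7, was at 0.338, 4.75 and 0 TPM in BM and 8.12, 24.9 and 12.5 in PT of WT, and at 3.66, 1.62 and 0 in BM and 26.1, 13.6 and 5.25 in PT of MRP8-Bcl2. These groups did not overlap in either genotype, yet the changes of 2.90 and 2.55 did not pass the test (limma, adjusted p 0.104 and 0.0552).

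Among the helicases, Ddx58 (RIG-I, a sensor of viral RNA) was at 108, 80.2 and 146 TPM in BM and 210, 229 and 141 in PT of WT, and at 111, 66.7 and 58.5 in BM and 288, 188 and 167 in PT of MRP8-Bcl2. It had the highest mean of the sensors in marrow and rose in MRP8-Bcl2 by 1.45 (adjusted p 0.0451, limma), a call near the threshold. The call was lost in 9 of 12 fits, those that left out library 2, 3, 4, 5, 7, 8, 9, 10 or 11. Libraries 4, 5, 10 and 11 are WT and do not enter this change, and without library 9 the change was 1.61 (adjusted p 0.0561, limma). The other 4 sensors were not called: Ifih1 (MDA5) ranged from 1.55 to 18.5 TPM, Dhx58 (LGP2) from 0 to 83.8, Zbp1 from 0.517 to 40.4 and Eif2ak2 (PKR, which halts translation) from 4.18 to 32.5. Ifih1 was higher in each PT WT library than in each BM WT library, and overlapped in MRP8-Bcl2. Of the 9 sensors, 1 was called higher in WT and 4 in MRP8-Bcl2, where 1.59% and 2.31% of all tested genes were.

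The 4 transcription factors of the group were not called in either genotype. Irf1, which drives many interferon gamma targets, was at 20.3, 48.1 and 215 TPM in BM and 60.1, 133 and 25.3 in PT of WT, and at 26.3, 51.3 and 17.3 in BM and 213, 178 and 71.6 in PT of MRP8-Bcl2. Library 6 held the highest value of all. BM and PT overlapped in WT and did not in MRP8-Bcl2 (change 2.24, adjusted p 0.0658, limma). Irf9 and Stat2, of the ISRE-binding complex, ranged from 9.01 to 206 and from 2.2 to 67.4 TPM. Irf7, the factor that amplifies interferon alpha production, ranged from 0.163 to 42 TPM and was higher in each PT Bcl2 than in each BM Bcl2 library.

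Isg15, the ubiquitin-like modifier (chromosome 4, 156199424-156200818), was at 0, 18.2 and 4.4 TPM in BM and 31.2, 69.1 and 177 in PT of WT, and at 1.33, 3.53 and 2.33 in BM and 118, 18.6 and 61.7 in PT of MRP8-Bcl2. The lowest PT value, 18.6 in library 8, barely exceeded the highest BM value, 18.2 in library 5. Isg15 rose by 3.97 in WT (SE 1.00, adjusted p 0.0474, limma) and by 4.0 in MRP8-Bcl2 (SE 1.00, adjusted p 0.0135). The WT call was lost in 9 of 12 fits, those without library 1, 2, 3, 4, 6, 9, 10, 11 or 12. The genes that attach or remove such modifiers did not pass the test: Usp18, which removes ISG15, was at most 18.9 TPM, Herc6, a ligase for ISG15, ranged from 1.23 to 28.8, and Trim25, the ligase that acts on RIG-I, from 21.9 to 137. Herc6 was higher in every PT Bcl2 library than in every BM Bcl2 library.

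Among the 9 effectors, 2 were called higher in WT and 3 in MRP8-Bcl2, where 1.59% and 2.31% of all tested genes were. Their median change was 0.61 in WT and -0.21 in MRP8-Bcl2, against 0.22 and -1.02 for all tested genes. Rsad2 (viperin, which makes a chain-terminating nucleotide; chromosome 12, 26442746-26456452) was at 2.27, 7.17 and 2.77 TPM in BM and 67, 110 and 24.2 in PT of WT, and at 2.15, 3.45 and 1.71 in BM and 156, 93.8 and 60.5 in PT of MRP8-Bcl2. No library of BM reached the lowest of PT. It rose by 3.63 in WT (SE 0.69, adjusted p 0.0126, limma) and by 4.85 in MRP8-Bcl2 (SE 0.69, adjusted p 0.000974). Its WT call was lost without library 4, 10 or 11. Cmpk2, the nucleotide kinase gene next to it on chromosome 12 (26469204-26479837), lay between 2.43 and 16.4 TPM in all 12 libraries and was not called, with changes of 0.61 in WT (adjusted p 0.715, limma) and 0.00 in MRP8-Bcl2 (adjusted p 1). The ratio of Rsad2 to Cmpk2 was 0.182 to 1.14 in the 6 BM libraries and 4.82 to 16.1 in the 6 PT libraries, a pair chosen after its values were seen and given without a test.

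Isg20, an exonuclease that degrades single-stranded RNA (chromosome 7, 78913424-78920396), was at 11.9, 35.5 and 3.96 TPM in BM and 96.5, 130 and 110 in PT of WT, and at 16.7, 22.4 and 31.2 in BM and 271, 91.4 and 121 in PT of MRP8-Bcl2. The groups were apart in both genotypes, with a rise of 3.08 in WT (SE 0.69, adjusted p 0.0287, limma) and of 2.61 in MRP8-Bcl2 (SE 0.69, adjusted p 0.0171). The first was lost without library 4, 6, 10, 11 or 12 and the second without library 2 or 7. The 3 Ifit genes, whose proteins bind viral RNA, were low. Ifit1 was at 0.269, 0.495 and 0.575 TPM in BM and 8.69, 18.4 and 3.2 in PT of WT, and at 0.279, 2.93 and 1.58 in BM and 53.1, 5.11 and 15.2 in PT of MRP8-Bcl2. Every PT library exceeded every BM library, and the change was 2.68 in WT (adjusted p 0.126, limma) and 2.90 in MRP8-Bcl2 (adjusted p 0.0313), which was lost without library 1, 2, 3, 7 or 9. Ifit2 stayed at or below 13.8 TPM, and Ifit3 was listed at 0 in all of BM WT, at 4.26, 1.75 and 0 TPM in PT WT, at 0, 4.03 and 0 for the marrow of MRP8-Bcl2 mice, and at 0, 0 and 0.329 for their peritoneum. Of the 31-base words of Ifit3, 61.8% also occur in other genes, Ifit3b foremost, so the split of reads between them is uncertain. On a transcript of 1 kb, 1 read was worth 0.343 to 1.61 TPM, so values of this size are a few reads.

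Mx1, a GTPase that inhibits influenza virus, was at 2.21, 2.84 and 0.24 TPM in BM and 1.77, 4.87 and 1.42 in PT of WT, and at 9.95, 8.06 and 11.3 in BM and 0.651, 1.13 and 3.81 in PT of MRP8-Bcl2. The BM Bcl2 libraries lay above all 9 others. None of the changes passed the test: it was -2.06 from BM to PT in MRP8-Bcl2 (adjusted p 0.059, limma), 0.46 in WT (adjusted p 0.808) and 2.11 between the genotypes in BM (adjusted p 0.673). Mx2 was listed at 0 in 5 libraries and was at most 5.51 TPM, and Adar, the editor of double-stranded RNA, ranged from 9.76 to 37.3.

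The Ifitm genes, which encode membrane proteins that block virus entry, were the most abundant of the group. On this per-length scale Ifitm1 had the lowest mean of them in marrow and the highest in peritoneum, in both genotypes. Ifitm1 (chromosome 7, 140967221-140969825) was at 80.6, 814 and 548 TPM in BM and 3696, 3411 and 3147 in PT of WT, and at 596, 134 and 60 in BM and 4653, 2328 and 2882 in PT of MRP8-Bcl2. It rose by 3.36 in WT (SE 0.83, adjusted p 0.042, limma) and by 4.21 in MRP8-Bcl2 (SE 0.83, adjusted p 0.00444), and the WT call was lost without library 2, 4, 6, 9, 10, 11 or 12. Ifitm2 (140954837-140955987) was at 435, 1725 and 2889 TPM in BM and 1078, 1173 and 892 in PT of WT, and at 2136, 816 and 989 in BM and 1518, 981 and 1189 in PT of MRP8-Bcl2. Its groups overlapped, with changes of -0.31 (SE 0.61) in WT and 0.01 (SE 0.61) in MRP8-Bcl2 (limma, adjusted p 0.842 and 0.992). Ifitm3 (141009586-141010770) was at 716, 1461 and 2110 TPM in BM and 462, 700 and 370 in PT of WT, and at 1848, 1411 and 1926 in BM and 1051, 788 and 501 in PT of MRP8-Bcl2. Within each genotype every PT value of Ifitm3 was below every BM value, a separation that 7.97% of all tested genes showed in WT and 32.6% in MRP8-Bcl2. The changes were -1.40 in WT (adjusted p 0.151, limma) and -1.20 in MRP8-Bcl2 (adjusted p 0.0893), and the latter was 0.39 when libraries were centred on their medians.

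A ratio within a library does not depend on the scaling between libraries. The ratio of Ifitm1 to Ifitm3 was 0.0311 to 0.557 in the 6 BM libraries and 2.96 to 8.49 in the 6 PT libraries, so that Ifitm3 exceeded Ifitm1 in every marrow library and Ifitm1 exceeded Ifitm3 in every peritoneal one. This pair was chosen after its values were seen and the ratio was not tested. Some of the sequence is common to other genes: 11.6% of the 31-base words of Ifitm1, 55.5% of those of Ifitm2 and 20.5% of those of Ifitm3. In the promoter windows no ISRE was found for Ifitm1, 1 for Ifitm2, and 2 just after the start for Ifitm3.

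**Figure D3:**
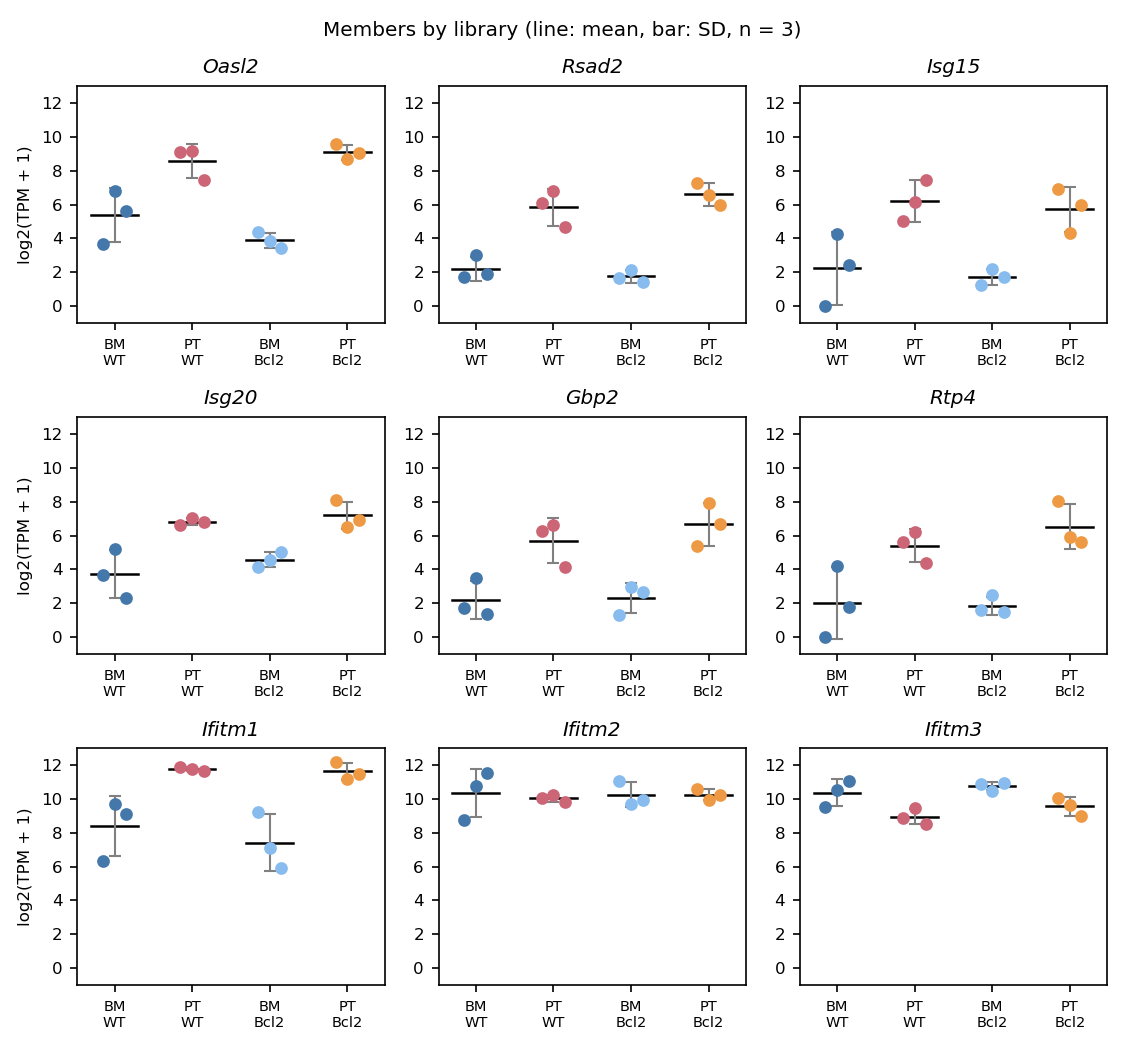
Level of 9 genes in each library (points) as log2(TPM + 1), with the mean (line) and SD (bar) of the 3 libraries of each group. Rsad2, Oasl2, Isg15, Isg20, Gbp2, Rtp4 and Ifitm1 are higher in all PT libraries than in all BM libraries, Ifitm2 overlaps, and Ifitm3 is lower in PT within each genotype.

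Rtp4, a receptor-transporting protein, was at 0, 17.7 and 2.45 TPM in BM and 48.3, 74 and 19.5 in PT of WT, and at 2.02, 4.56 and 1.81 in BM and 262, 58.9 and 48.2 in PT of MRP8-Bcl2. Its change was 3.40 in WT (adjusted p 0.0793, limma) and 4.67 in MRP8-Bcl2 (SE 0.97, adjusted p 0.0059), and the groups were apart in both genotypes. Bst2 (tetherin, which holds budding virus at the cell surface) was listed at 0 in 6 libraries and reached 87.2 TPM in library 7.

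The guanylate-binding proteins, GTPases that attack membranes around intracellular microbes, were led by Gbp2 (chromosome 3, 142620602-142638008). Its level was 2.23, 10.2 and 1.6 TPM in BM and 76.5, 96.3 and 16.9 in PT of WT, and 1.47, 6.79 and 5.3 in BM and 40.4, 245 and 99.6 in PT of MRP8-Bcl2. The lowest PT value was above the highest BM value, and Gbp2 rose by 3.50 in WT (SE 0.87, adjusted p 0.0448, limma) and by 4.35 in MRP8-Bcl2 (SE 0.87, adjusted p 0.00488). Its WT call was lost without library 2, 3, 4, 6, 9, 10 or 11. The row listed as Gbp5 was at 0.228, 0 and 6.11 TPM in BM and 14.1, 15.4 and 2.01 in PT of WT, and at 0.287, 0.615 and 1.3 in BM and 4.02, 46.9 and 17.2 in PT of MRP8-Bcl2. Library 12 lay below library 6, so that the WT groups overlapped (change 2.14, adjusted p 0.306, limma), and it rose by 3.28 in MRP8-Bcl2 (adjusted p 0.0331), a call lost without library 1, 2, 3, 8 or 9. The table names this row guanylate binding protein 5 and lists Gbp2b under another ID, whereas GENCODE M21 calls its ID (ENSMUSG00000040264) Gbp2b, so its values are not assigned to either gene here and no promoter was matched to it. Gbp3 ranged from 0 to 20.2 TPM and was not called.

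Of the 6 remaining genes, Parp14 and Xaf1 were called higher in MRP8-Bcl2. Parp14, an ADP-ribosyltransferase, was at 9.07, 8.7 and 5.76 TPM in BM and 26.4, 35.2 and 29.2 in PT of WT, and at 12, 9.32 and 11.3 in BM and 114, 44.4 and 24.4 in PT of MRP8-Bcl2. Every PT library exceeded every BM library, with a change of 2.11 in MRP8-Bcl2 (adjusted p 0.0281, limma) and 1.83 in WT (adjusted p 0.14). Xaf1, an antagonist of the caspase inhibitor XIAP, was at 2.06, 5.25 and 3.42 TPM in BM and 15.9, 8.57 and 22.3 in PT of WT, and at 2.16, 5.75 and 1.05 in BM and 7.33, 37.8 and 17.4 in PT of MRP8-Bcl2. It was likewise apart in both genotypes (change 2.36 in MRP8-Bcl2, adjusted p 0.0413, and 1.83 in WT, adjusted p 0.248, limma). Without library 2, 3, 7 or 8 Parp14 was not called, and without library 1, 3, 8, 9, 10 or 11 Xaf1 was not. Parp9, a partner of the ubiquitin ligase DTX3L, was at 3.01, 19.3 and 0.597 TPM in BM and 47.2, 50.5 and 45.3 in PT of WT, and at 7.28, 37 and 35 in BM and 23.3, 81.5 and 13.9 in PT of MRP8-Bcl2. It was higher in PT WT than in BM WT without overlap (change 3.26, adjusted p 0.0759, limma), and overlapped in MRP8-Bcl2 (0.47, adjusted p 0.741).
Trim30a, a regulator of Toll-like receptor signalling, was at 61.5, 249 and 96.4 TPM in BM and 193, 417 and 248 in PT of WT, and at 172, 109 and 123 in BM and 68, 167 and 265 in PT of MRP8-Bcl2. Its groups overlapped in both genotypes, and neither change passed the test (limma, adjusted p 0.332 and 0.899). Ifi35 was at 10.3, 6.02 and 96.4 TPM in BM and 13.5, 16.9 and 6.23 in PT of WT, and at 12.5, 3.41 and 8.59 in BM and 3.14, 4.03 and 4.02 in PT of MRP8-Bcl2. Ifi44 was at most 2.85 TPM.

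Of the 40 genes, none was called between the genotypes. The difference of the BM to PT change between MRP8-Bcl2 and WT was called for 0 of 40 genes, where 0% of all tested genes were called higher and 0.0149% lower (limma, adjusted p under 0.05). At an unadjusted p under 0.05 it was 0 higher and 2 lower, Mx1 (-2.51, SE 1.04, adjusted p 0.265) and Parp9 (-2.80, SE 1.31, adjusted p 0.293). At that p this difference was higher in 0.364% of all tested genes and lower in 16.6%. Over the 14 genes called in at least 1 genotype this difference lay between -0.47 and 2.02, with standard errors of 0.68 to 1.43, so that differences of several fold were within its error. In BM, 0 genes were called between MRP8-Bcl2 and WT, where 0.0149% of all genes were called higher and 0.00743% lower (limma), and 2 were higher and 0 lower at an unadjusted p under 0.05, Mx1 and Parp9 (2.15, adjusted p 0.673). Of all tested genes, 6.61% were higher and 0.751% lower in BM at that p. In PT, 0 of the 40 were called, where 0% of all genes were called higher and 0.0297% lower. At an unadjusted p under 0.05, 0 of the 40 passed in either direction, where 0.446% of all tested genes were higher and 12.3% lower. The smallest p-values in PT were those of Ifit3 (-1.15, adjusted p 0.486, limma) and Ifi35 (-1.39, adjusted p 0.518), and Ifi35 was the 1 gene with every PT Bcl2 value below every PT WT value, as 18.8% of all tested genes were, while 0 had every value above, as 0.587% did. In BM 4 genes (Ifit2, Mx1, Adar and Parp14) were higher in every MRP8-Bcl2 library than in every WT library, as 10% of all tested genes were, and 0 were lower in this way, as 1.17% were.

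Reads of the human transgene can be assigned to mouse Bcl2, which stood at 166, 224 and 333 TPM in the marrow libraries of MRP8-Bcl2 and at 82.8 TPM (library 7) and 58.6 TPM (library 8) in its peritoneal ones. Library 9, labelled PT Bcl2, had 0.695 TPM, and the 6 WT libraries had 0.219 to 2.37. Without library 9, 11 genes of the group were higher and 1 lower in PT of MRP8-Bcl2 (limma), where 2.36% of all tested genes were called higher and 16.4% lower. Ddx58, Ifit1, Gbp5 and Xaf1 were no longer called, Oasl1 was called higher (change 3.11, adjusted p 0.0424) and Mx1 was called lower (-2.51, adjusted p 0.0446), the 1 member to fall.

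The scaling between libraries changes the level of all genes together. TPM divides by the library total, and 108 genes whose transcripts hold 31 or more A or T in a row took 8.93 to 65.6% of it, with 50.8 to 65.6% in libraries 8 to 11 and at most 24.1% in the others. The median change of all tested genes in MRP8-Bcl2 was -1.02 as deposited, 0.57 when libraries were centred on their medians, 0 after quantile normalization, -0.44 with median ratio scaling and -0.53 with the 108 genes left out, and their calls went from 311 higher and 2567 lower to 1636 and 467, 678 and 779, 641 and 1272, and 565 and 1077. The interferon-stimulated genes stayed above it each time, with medians of 1.29, 2.88, 2.14, 2.11 and 2.07, and 14, 21, 16, 17 and 17 of them called higher. In WT the median of all genes was 0.22, 0, 0.04, 0.02 and 0.62 in the same order, with 214 higher and 164 lower genes as deposited and 112 and 197, 233 and 264, 156 and 218, and 479 and 113 under the others. The group's medians in WT were 1.33, 1.11, 1.24, 1.26 and 1.86, with 6, 2, 3, 2 and 9 genes called higher.

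**Figure D4:**
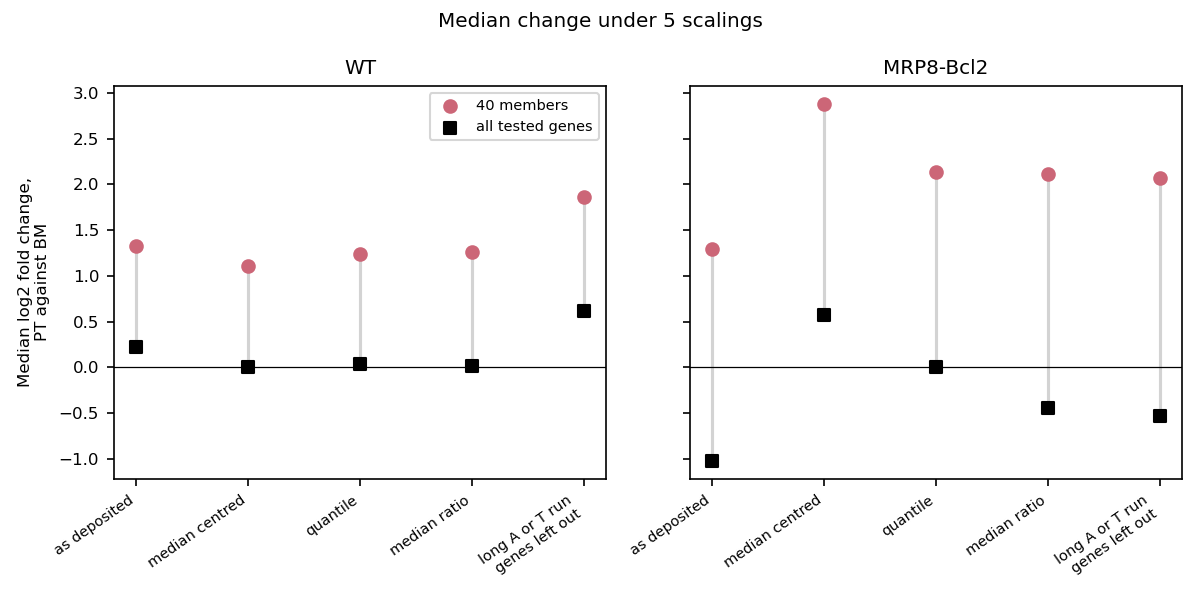
Median log2 fold change from BM to PT of the 40 interferon-stimulated genes (circles) and of all tested genes (squares) under 5 scalings of the libraries, in WT and MRP8-Bcl2. The group's median is above that of all genes in each of the 10 pairs, with the deposited values at 1.33 against 0.22 in WT and 1.29 against -1.02 in MRP8-Bcl2.

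The 37 genes other than the Ifitm genes summed to 380 to 944 TPM in BM and 1383 to 3421 in PT. Within a group the libraries differed over these genes: library 11 (PT WT) was above its group's mean for 35 of the 40 genes and library 12 for 9, and in BM WT library 5 was above for 28 and library 4 for 11. The median deviation of the 40 genes from the group mean was 0.56, -0.46, 0.48 and -0.51 in libraries 11, 12, 5 and 4, on the log2(TPM + 1) scale. For all tested genes the median deviation in these libraries was -0.13, 0.34, 0.00 and 0.33. Over the 12 libraries, with the group means taken out, Pearson's r between pairs had a median of 0.32 for the 14 called genes (91 pairs) and of 0.09 for the 26 others, and was highest for Oas3 and Oasl2 (0.91) and Oasl2 and Rtp4 (0.87). These values share libraries and their depth, and are a description.

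The interferons themselves were at or near 0. Of 10 ligand genes in a list of the pathway, 8 had a row in the table. Ifnb1, Ifna2, Ifna4, Ifne, Ifng, Ifnl2 and Ifnl3 were listed at 0 in all 12 libraries, and Ifnk was at 2.35 TPM in library 4, 0.465 in library 10, 1.46 in library 7 and 0 elsewhere. A listed 0 can also be a failed estimate. All 6 receptor genes were above 0 in every library and 0 were called in either genotype (limma; at least 2-fold, adjusted p under 0.05). Ifnar1 was at 16.9, 28.4 and 22.2 TPM in BM and 66.7, 64.8 and 83.7 in PT of WT, and at 19.2, 25.5 and 27.2 in BM and 44, 231 and 48.7 in PT of MRP8-Bcl2, with no overlap between marrow and peritoneum, and the changes were 1.65 (adjusted p 0.191, limma) and 1.70 (adjusted p 0.0653). In the average of both genotypes Ifnar1 (1.68, adjusted p 0.0171, limma) and Il10rb (1.75, adjusted p 0.0194), the shared chain of the lambda receptor, were called higher. Ifnar2 lay between 82.7 and 171 TPM in 11 libraries and at 1356 in library 7, Ifngr1 between 12.2 and 126, Ifngr2 between 21.5 and 125, and Ifnlr1 between 0.202 and 45.1.
Downstream of the receptors, 1 of 8 signalling genes was called higher in WT, Jak2, a kinase of the gamma receptor. It had 21, 28.7 and 4.37 TPM in BM against 78.7, 73.1 and 115 in PT of WT (change 2.54, adjusted p 0.0474, limma), and 22.5, 17.2 and 25.4 in BM against 50.8, 33.2 and 46.8 in PT of MRP8-Bcl2 (0.97, adjusted p 0.286). Irf8, a factor of the monocyte lineage, was called lower in MRP8-Bcl2 (change -3.43, adjusted p 0.0144, limma), with 12.1, 6.81 and 49.9 TPM in BM Bcl2 and 0.394, 0.393 and 1.12 in PT Bcl2. Of 4 tested inhibitors Socs3, a feedback inhibitor of cytokine receptors, was called higher in MRP8-Bcl2: it had 19.4, 6.31 and 8.87 TPM in BM Bcl2 and 161, 91.7 and 101 in PT Bcl2 (change 3.34, adjusted p 0.00699, limma), and its change in WT was 2.67 (adjusted p 0.0638). Among 10 sensing adaptors, Mb21d1 (cGAS, the sensor of cytosolic DNA) was called lower in MRP8-Bcl2 (-2.63, adjusted p 0.0459, limma). Of all tested genes, 1.59% were called higher and 1.22% lower in WT, and 2.31% and 19.1% in MRP8-Bcl2.

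A list of 30 further interferon-stimulated genes was set beside the 40. Of 29 tested, 0 were called in WT and 4 were called higher in MRP8-Bcl2 (limma): Ifit3b (change 2.29, adjusted p 0.0486), the Schlafen genes Slfn1 (2.67, adjusted p 0.014) and Slfn4 (2.34, adjusted p 0.0142), and Samhd1, a hydrolase of deoxynucleotides (1.57, adjusted p 0.0458). Of all tested genes, 1.59% were called higher in WT and 2.31% in MRP8-Bcl2. The median change of the 29 was 1.01 in WT and 0.56 in MRP8-Bcl2, against 0.22 and -1.02 for all tested genes. Samhd1 was at 130, 415 and 309 TPM in BM and 640, 848 and 819 in PT of WT, and at 326, 138 and 320 in BM and 1035, 678 and 541 in PT of MRP8-Bcl2, apart in both genotypes. Of 10 tested genes known mainly as interferon gamma targets, 1 was called higher in WT and 3 in MRP8-Bcl2, beside the same 1.59% and 2.31% of all tested genes. Cd274, which encodes the checkpoint ligand PD-L1, was at 20.1, 11.9 and 16.2 TPM in BM and 231, 150 and 128 in PT of WT, and at 6.48, 23.9 and 10 in BM and 250, 283 and 196 in PT of MRP8-Bcl2. It rose in both genotypes, by 3.31 (adjusted p 0.00599, limma) and 4.24 (adjusted p 0.000606). The others were the chemokine gene Cxcl10 (change 3.35 in MRP8-Bcl2, adjusted p 0.0375, limma) and Gbp7 (2.84, adjusted p 0.0248), with 1.79 (adjusted p 0.425) and 2.50 (adjusted p 0.123) in WT.

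Markers of other cells were measured beside these genes. Of the 8 neutrophil genes, 3 were called lower in PT of WT (S100a8, S100a9 and Ly6g), and 2 lower (S100a8 and S100a9) and 1 higher (Csf3r) in MRP8-Bcl2 (limma). Ly6g was at 588, 1059 and 1266 TPM in BM and 13.1, 14.9 and 0 in PT of WT. In MRP8-Bcl2 it was at 1225, 203 and 51.5 TPM in BM and 58.9, 60.4 and 126 in PT. The 8 genes of immature neutrophils, such as Mpo and Elane, summed to 13141 to 40383 TPM in BM and 135 to 267 in PT, with 7 called lower in WT and 8 in MRP8-Bcl2. The 10 macrophage markers summed to 46.7 to 221 TPM in BM, 221 to 410 in PT WT and 152 to 715 in PT Bcl2. Of these, 8 were tested and 0 called (limma). In WT, Adgre1 (change 2.01) and Csf1r (0.81) were higher in every PT library than in every BM library. The other tested markers overlapped in WT, with positive changes except for C1qb (-0.49). In MRP8-Bcl2 all tested markers overlapped, and Adgre1, Mertk, Mrc1 and C1qc had negative changes. Csf1r, C1qb, Cd68 and Timd4 had positive ones there. Gata6, the defining factor of resident peritoneal macrophages, was at 0.603 and 0.114 TPM in libraries 10 and 11 and at 0 in the other 10. The 5 markers of plasmacytoid dendritic cells, the main producers of interferon alpha, summed in WT to between 6.1 and 124 TPM (BM) and 10.8 and 43.9 (PT), and in MRP8-Bcl2 to between 13.1 and 28.9 (BM) and 1.61 and 29.8 (PT), with 0 called (limma). The 5 monocyte markers summed to 435 to 2006 TPM in BM and 57 to 115 in PT, with 1 called lower in WT and 4 in MRP8-Bcl2. The 5 B cell markers summed to 15.5 to 93.1 TPM in BM and 48.9 to 286 in PT, with 0 called in either genotype. Of the 6 T and NK cell markers, 3 were tested and 1 was lower in each genotype, and of the 6 erythroid markers, 4 were tested and 1 was lower in WT and 3 in MRP8-Bcl2. Among all tested genes, 1.22% were called lower in WT and 19.1% in MRP8-Bcl2. The part of these cells and of neutrophil age in the changes above was not tested.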

How the data were processed

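RNA of neutrophils sorted into Trizol was amplified as cDNA and sequenced as paired-end reads. The authors used AltAnalyze with its default values, and the table they deposited holds log2(TPM + 1) for 28987 genes in 12 libraries. The version, genome build and read totals are not given in the sources used here. Libraries were placed in groups by the header of the deposited marker table. Another table, with 2 columns of per-sample values, was not used because its sample is not stated, and the authors' fold changes and p-values were not used.

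Genes that reached 1 TPM in 3 or more libraries, 13456 in all, were fitted with limma 3.58.1 and its trended eBayes (R 4.3.3) on log2(TPM + 1), a pseudocount of 1, with all 12 libraries in 1 fit and 8 residual degrees of freedom. This scale understates changes of low genes. Calls required an adjusted p (Benjamini-Hochberg, over all tested genes) under 0.05 and a 2-fold change, except for the interaction, where the adjusted p sufficed. On simulated data with 200 changed genes among 13456, made like PT against BM in WT, 56 of them were recovered with the right sign beside 8 false calls, and 36 of the 70 with a log2 change of 4 were recovered, so genes that are not called can differ. What 1 read is worth was derived from the steps between low values of 5021 genes with 1 transcript. Coordinates and 31-base words are from GENCODE M21 (GRCm38), promoter windows from RefSeq (GRCm38.p6), matched by symbol except for the row listed as Gbp5, whose ID has another symbol in GENCODE M21. Named in full are members called in any comparison, the 8 most abundant, and the 2 with the smallest p per comparison if not called. Other members are given by range. Pathway genes are named where called, with the ligands and receptors, and 1 item is not reported here. Pathway and marker genes outside the 40 were not tested under the alternatives. The members and all lists were chosen with earlier results of these data known. A 0 in a table without counts can be a failed estimate.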

Additional observations from a re-analysis of the deposited data

How the results depend on the processing

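The genes were tested again under up to 21 alternatives in each comparison (36 of the 40 with at least 5 TPM, and 39 without library 2, 10 or 11), and the thresholds were changed in 2 further ways. The number called higher in PT, 6 in WT and 14 in MRP8-Bcl2, was 3 and 13 with a pseudocount of 0.1 TPM, 1 and 11 without a filter on low values, 6 and 15 with at least 5 TPM, 2 and 21 with libraries centred on their medians, 3 and 16 after quantile normalization, 2 and 17 with median ratio scaling, 9 and 17 without the genes with a long run of A or T, 0 and 9 when only the groups compared were fitted, 3 and 14 without the trend, and 8 and 16 at an adjusted p under 0.1. The share of all tested genes called higher, 1.59% in WT and 2.31% in MRP8-Bcl2, moved as well. With the pseudocount, no filter, 5 TPM and centring it was 1.2% and 2.17%, 0.752% and 1.21%, 2.23% and 3.38%, and 0.832% and 12.2%. For quantile normalization, median ratio scaling and the long-run genes left out it was 1.73% and 5.04%, 1.17% and 4.79%, and 3.42% and 4.04%. With only the groups compared it was 0.751% and 1.51%, and without the trend 1.22% and 2.1%. The share of all tested genes at an adjusted p under 0.1 was not computed. The counts of the group at that threshold, higher or lower, therefore have no share to be read against. With 1 library left out the number of the 40 called higher ranged from 0 to 8 in WT and from 9 to 16 in MRP8-Bcl2: in WT it was 3 without library 2, 9 or 12, 1 without 6 and 0 without 4, 10 or 11, and in MRP8-Bcl2 9 without library 2 or 3. The share of all tested genes called higher in these fits ranged from 0.303% to 2.3% in WT and from 1.14% to 2.45% in MRP8-Bcl2. The number called lower in MRP8-Bcl2, 0, was 1 without the trend and 2 at an adjusted p under 0.1, and ranged from 0 to 1 with 1 library left out. Of all tested genes, 19.1% were called lower in the main fit, 19.3% without the trend and 8.17% to 20.8% with 1 library left out. The number called lower in WT, and in either direction between the genotypes or for the difference of the changes, was 0 under every alternative run. Of the 20 calls, 8 were kept under all 21 alternatives, all in MRP8-Bcl2 (Gbp2, Ifitm1, Isg15, Oas2, Oas3, Oasl2, Rsad2 and Rtp4), and none changed sign. In WT Rsad2 kept its call under 17 of 21, Isg20 under 14, Oasl2 under 12, Ifitm1 and Gbp2 under 7 and Isg15 under 6. Changes that were not called and changed sign were those of Irf1 in WT (0.5 without the genes with a long run of A or T, and -0.78 to 0.89 with 1 library left out, positive without library 6 or 12), Ifitm2 in WT (0.21 without those genes, and -1.10 to 0.26 with 1 library left out, positive without library 6) and in MRP8-Bcl2 (-0.26 to 0.43, negative without library 2, 3 or 7), Ifitm3 in MRP8-Bcl2 (0.39 with centring) and Trim30a in MRP8-Bcl2 (-0.31 to 0.67, negative without library 2 or 9). The cause was not tested. In the average of both genotypes, 14 to 22 genes were higher under every alternative, where 2.86% to 13% of all tested genes were called higher. Ifitm3 was not called lower in this average with centring, median ratio scaling or without the genes with a long run of A or T. No paired analysis was possible because the columns carry none of the replicate numbers of the labels and do not show which BM and PT libraries share a mouse, so the fit with a replicate block was not run. TPM gives no read totals, and the estimated value of 1 read limits genes of a few TPM.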
